A study of Junonia coenia with 24 samples.

Results

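The open chromatin of one stretch of the buckeye butterfly genome is described here, positions 500001 to 800000 of contig 000214F. Its members are all intervals of the 2 deposited ATAC-seq tables that lie wholly in that stretch, 432 of 488675 in the hindwing table and 457 of 500558 in the forewing table. The stretch was chosen by its read counts, because many intervals between positions 600001 and 700000 differed between the hindwing libraries labelled 6 d and 72 h. That contrast is therefore given as a description without p-values, and the limits of 500000 and 800000 were set with those results known.

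Junonia coenia was reared at about 27 °C, and the accessible DNA of entire wings was tagged with the transposase Tn5. The groups were hindwings and forewings at 4 labelled stages, which were the 5th and last larval instar, the prepupa, the pupa 72 h after pupation and the pupa 6 d after pupation, whose titles say day 7. With 3 libraries in each of 8 groups there were 24, and no group carries a mutation or treatment in the labels. Whether replicates came from separate or pooled animals is not in the labels, and p-values therefore reflect the spread of these libraries alone, which may be technical.

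In ATAC-seq the transposase cuts DNA that is not wrapped tightly in nucleosomes, so an interval with more reads has more accessible chromatin. Open intervals often mark promoters and enhancers, and neighbouring intervals can open or close together where they lie in one regulatory neighbourhood. During metamorphosis the larval wing disc everts in the prepupa and the pupal wing epithelium then forms scale cells, a sequence set in motion by the steroid hormone ecdysone and its receptor EcR, which the study's title names. Whole tissue was assayed, so that fewer cells of a type with open chromatin and less open chromatin per cell cannot be told apart. No genome or annotation was used, so intervals are given by position on the contig and are not placed in genes.

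Total counts in peaks were 6977525 to 14795457 per hindwing library and 7733254 to 22020858 per forewing library. Values are CPM, read counts divided by the total count of the library over the tested intervals times its TMM factor. TMM factors correct for differences in composition between libraries and ranged from 0.734 to 1.27 in the hindwing and from 0.799 to 1.37 in the forewing. Hindwing prepupa replicate 2 had a factor of 0.918, against 1.25 and 1.22 in replicates 1 and 3 of its group. Factors also differed by label. In the hindwing they were 0.734 to 0.802 at 72 h and 1.23 to 1.27 at 6 d. In the forewing they were 0.799 to 0.873 at 6 d and 1.29 to 1.37 at prepupa. Forewing libraries labelled 72 h had totals of 15551931 or more, and the other forewing libraries had 10036195 or fewer. Over 136423 pairs of intervals matched between the tables, the label with the lowest mean was the same in both wings at 19.8%. Stage names are used as the labels give them, and a step between labels is a difference between labelled groups whose order in development was not tested. Whether a stage name marks the same stage in both tables was not tested here either. The names may not line up between the tables beyond the larval label. The wings were compared by a test at the larval label only.

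The stretch held 432 of the 673 hindwing and 457 of the 658 forewing intervals of its contig. They covered 37.6% of it in the hindwing table and 39.3% in the forewing table, with median widths of 176 bp and 162 bp, against 137 bp and 122 bp over each whole table. There were 144 hindwing and 152 forewing members per 100 kb. Below the stretch the contig held 221 hindwing and 182 forewing intervals, and above it 20 and 19, the last of which ended at 821225 and 820172. Signal was concentrated, since the 10 strongest members held 26.8% of the summed mean CPM of the hindwing members and 28.8% of that of the forewing members. A share of 50% of the signal came from 40 hindwing and 38 forewing members.

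**Figure D1:**
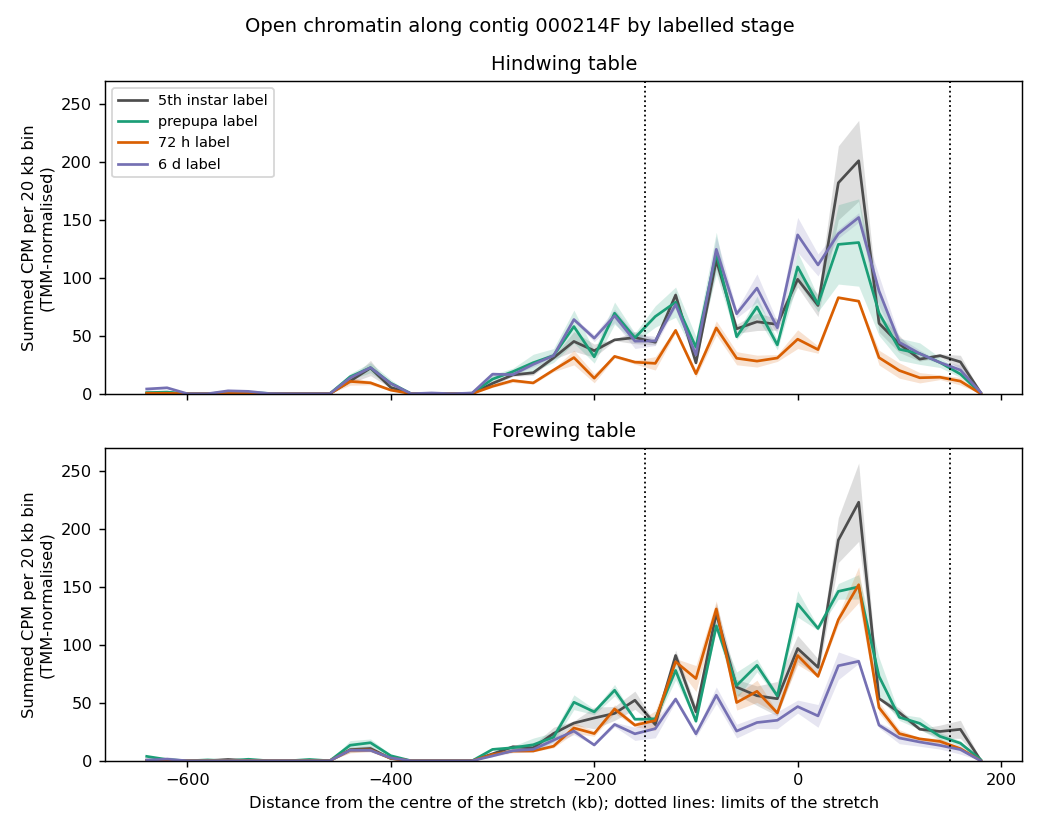
Summed TMM-normalised CPM of all intervals in 20 kb bins along the contig, by distance from the centre of the stretch, with the hindwing table above and the forewing table below. Lines are means of 3 libraries for each label and bands are ± SD. Within the dotted limits the hindwing line labelled 72 h and the forewing line labelled 6 d run lowest, with forewing values near the lower limit closer together.

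Signal peaked between 680001 and 720000, where the 5th-instar mean was the highest of the 4 labels in both wings. In the bin from 700001 to 720000 the hindwing had 201 ± 34.9, 131 ± 37.7, 79.9 ± 0.653 and 152 ± 4.11 CPM for the 5th instar, prepupa, 72 h and 6 d labels (SD, n = 3 each). The highest prepupa library of the hindwing, at 174 CPM, lay above the lowest 5th-instar library, at 163 CPM. The forewing had 223 ± 33.8, 150 ± 10.5, 152 ± 15.4 and 85.9 ± 1.89 CPM for the same labels, and there its 5th-instar libraries, 188 CPM or more, lay above all others. In the forewing bin from 540001 to 560000 the 72 h label was highest instead, with 42.2 ± 4.99, 34.2 ± 0.954, 71.0 ± 11.2 and 23.3 ± 2.73 CPM. These bins were chosen after their values were seen.

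The summed level of the stretch was lowest in the hindwing libraries labelled 72 h and in the forewing libraries labelled 6 d. In the hindwing, the 3 libraries labelled 5th instar had 1072, 1215 and 1236 CPM summed over all members. Those labelled prepupa had 1025, 1171 and 1073 CPM, those labelled 72 h had 532, 570 and 614 CPM, and those labelled 6 d had 1242, 1260 and 1192 CPM. The 72 h libraries lay below all the others of the hindwing, and the remaining groups overlapped except that 6 d lay above prepupa.

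The forewing libraries labelled 5th instar had summed levels of 1100, 1182 and 1331 CPM, and those labelled prepupa had 1157, 1244 and 1134 CPM. Summed levels were 989, 1028 and 1033 CPM at 72 h and 563, 595 and 607 CPM at 6 d. Forewing libraries labelled 6 d lay below every other forewing library, those labelled 72 h lay below the 5th instar and prepupa libraries, and the 5th instar and prepupa groups overlapped. The tables were normalised separately, so levels of different wings are set side by side only.

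**Figure D2:**
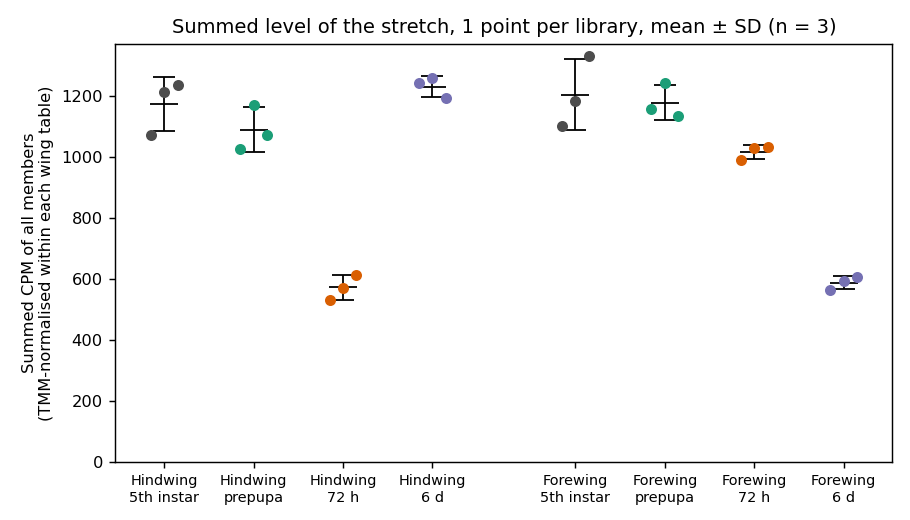
Summed TMM-normalised CPM of all members in each library, with hindwing groups on the left and forewing groups on the right. Points are libraries and bars are means ± SD (n = 3). The hindwing 72 h libraries (532 to 614 CPM) and the forewing 6 d libraries (563 to 607 CPM) lie below all other libraries of their wing.

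Group means of the summed level were 572 ± 40.9 CPM at 72 h and 1089 ± 74.4 CPM at prepupa in the hindwing (SD, n = 3 each), a log2 ratio of -0.93. In the forewing they were 588 ± 22.7 CPM at 6 d and 1017 ± 23.9 CPM at 72 h (SD, n = 3 each), a log2 ratio of -0.79. For the intervals of the contig outside the stretch, the same log2 ratio was -0.98 in the hindwing, and it was -0.22 in the forewing. On the scale of library totals, which here are all counts in peaks without TMM factors, the ratios of the stretch were -1.40 and -0.96.

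Few hindwing intervals were called between the 5th instar and prepupa labels, in the whole table as in the stretch. Of 264 members with enough reads to be tested, 6 rose (2.27%) and 13 fell (4.92%) at prepupa (edgeR quasi-likelihood test, adjusted p under 0.05). Among all 258640 tested hindwing intervals 1.47% rose and 3.77% fell. The median log2 change of the tested members was 0.21, against 0.10 for all tested intervals. Libraries of these groups did not overlap at 45 members that were higher at prepupa and 25 that were lower, where the backgrounds were 12.9% and 11.8%.

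Among the hindwing members that moved at this step, the interval at 622449 to 622761 had 1.60, 3.0 and 1.26 CPM at prepupa, against 9.13, 13.6 and 17.0 CPM at the 5th instar. It fell by 2.79 on the log2 scale (SE 0.44, edgeR adjusted p = 0.000712), with no overlap between the groups. At 714964 to 715354 the values were 1.66, 4.20 and 1.68 CPM at prepupa and 9.89, 8.90 and 13.4 CPM at the 5th instar, a log2 change of -2.13 (SE 0.35, edgeR adjusted p = 0.00106). This interval stood at 0.413, 0.329 and 0.657 CPM in the libraries labelled 72 h, below its prepupa values as well. The largest rise by the naming rule was at 559107 to 559405, with 3.62, 10.5 and 5.46 CPM at prepupa and 1.07, 0.959 and 0.69 CPM at the 5th instar (log2 change 2.82, SE 0.49, edgeR adjusted p = 0.00142).

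The counts of this step were small and moved with single libraries. Without prepupa replicate 2, the library with the lower TMM factor, 4 members rose and 22 fell. Without any one of the other 5 libraries, 1 or 2 rose and 8 to 13 fell. Scaled by library totals, the split became 12 rising and 11 falling.

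Between the prepupa and 72 h labels, falls outnumbered rises in the hindwing stretch. At 72 h 112 of 264 tested members fell, 3 rose and 149 were not called, against a background of 7.75% falling and 12.9% rising over all tested hindwing intervals. The median log2 change was -1.29 for tested members and -0.13 for all tested intervals, and 237 of the 264 members had a negative change. Libraries did not overlap at 151 members that were lower at 72 h and 8 that were higher, against 18.1% and 18.2% of all tested intervals. These 72 h libraries also enter the contrast that picked the stretch, so the step is not independent of that choice.

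Falling members lay in each of the 3 segments of 100 kb that make up the stretch. Between 500001 and 600000 a fall was called at 42 of 92 tested members with a median log2 change of -1.32, between 600001 and 700000 at 42 of 98 (-1.32), and between 700001 and 800000 at 28 of 74 (-1.20). Between 200001 and 500000 on the same contig, below the stretch, 35 of 119 intervals fell with a median of -1.22. Without 72 h replicate 1 the stretch had 65 falling members, and without prepupa replicate 3 it had 71. Without prepupa replicate 2 it had 110 falling and 5 rising members. On the scale of library totals 187 fell, but the median of all intervals then moved to -0.66 and the members lay below it by 1.16, as with TMM factors.

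The strong interval at 612124 to 614274, which is 2151 bp wide, had 10.7, 13.5 and 15.1 CPM at 72 h and 28.4, 34.0 and 39.5 CPM at prepupa. It fell by 1.37 on the log2 scale (SE 0.29, edgeR adjusted p = 0.00192). The largest fall by the naming rule was at 616073 to 616354, with 0, 0.987 and 0.328 CPM at 72 h against 3.93, 9.71 and 5.04 CPM at prepupa (log2 change -3.84, SE 0.66, edgeR adjusted p = 0.000259). The interval at 559107 to 559405 had 0.275, 0.329 and 1.31 CPM at 72 h and the prepupa values above, a log2 change of -3.34 (SE 0.52, edgeR adjusted p = 0.000105). In both of these, prepupa replicate 2 held the highest value.

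The contrast between the hindwing libraries labelled 6 d and 72 h, which picked the stretch, is given as values only. Over the whole table edgeR called 14% of tested intervals higher and 20.9% lower at 6 d, and calls at the members are not compared with these shares because the contrast chose them. The median log2 change of the 264 tested members was 1.42, and that of all tested intervals was 0.02. Libraries did not overlap at 171 members that were higher at 6 d and 14 that were lower, with backgrounds of 22.9% and 25%, which the choice of the stretch leaves with no weight as a comparison. Median log2 changes were 1.24 from 500001 to 600000, 1.83 from 600001 to 700000 and 1.34 from 700001 to 800000. Between 200001 and 500000, outside the stretch, the median was 1.18. At 612124 to 614274 the values were 55.1, 58.8 and 44.1 CPM at 6 d, against the 72 h values given above.

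In the forewing, the step from 5th instar to prepupa moved members in both directions. Of 269 tested members, 44 rose and 31 fell at prepupa, against a background of 11.3% rising and 20.2% falling over 253438 tested forewing intervals. The median log2 change was 0.38 for tested members and -0.00 for all tested intervals. Libraries did not overlap at 81 members that were higher and 44 that were lower at prepupa, with backgrounds of 21.2% and 25%. Scaled by library totals, the split was 109 rising and 19 falling, while the median of all intervals moved to 0.50. Without 5th-instar replicate 1 there were 29 rising and 31 falling members, and without prepupa replicate 2 there were 27 and 28.

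The largest forewing falls at prepupa lay close together. At 583024 to 583278 the prepupa libraries had 0.26, 0.709 and 0.548 CPM and the 5th-instar libraries 8.40, 10.3 and 10.1 CPM, a log2 change of -4.23 (SE 0.40, edgeR adjusted p = 1.58e-07). At 577609 to 578116 they had 1.13, 0.532 and 3.40 CPM at prepupa against 18.2, 21.8 and 22.8 CPM at the 5th instar (log2 change -3.68, SE 0.41, edgeR adjusted p = 1.28e-06). The 20 kb bins that hold these intervals had 5 falling members of 25 tested between 560001 and 580000 and 4 of 17 between 580001 and 600000. Beside them 7 and 4 members rose. Over all tested forewing intervals 20.2% fell, so falls were not concentrated in these bins, which were picked for the intervals above.

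The rises at prepupa included wide and strong intervals. At 664612 to 665385 the libraries had 9.53, 11 and 10.1 CPM at prepupa and 2.52, 1.72 and 2.09 CPM at the 5th instar, a log2 change of 2.27 (SE 0.28, edgeR adjusted p = 4.83e-06). The interval at 612124 to 614129, the forewing counterpart of the strong hindwing interval described above, had 44.5, 46.4 and 47.0 CPM at prepupa and 22.5, 21.8 and 25.8 CPM at the 5th instar (log2 change 0.98, SE 0.20, edgeR adjusted p = 0.000877). Neither pair of groups overlapped. The interval at 612124 to 614129 then fell to 24.5, 21.3 and 29.2 CPM at 72 h (log2 change -0.88, SE 0.19, edgeR adjusted p = 0.00218) and to 15.8, 12.7 and 15.6 CPM at 6 d (log2 change -0.77, SE 0.20, edgeR adjusted p = 0.00737).

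From prepupa to 72 h, the forewing stretch had 20 rising and 36 falling members, against backgrounds of 18% rising and 6.99% falling. The median log2 change was -0.39 for members and -0.03 for all tested intervals. Of the rises, 14 of 98 tested members were between 500001 and 600000, 5 of 105 between 600001 and 700000 and 1 of 66 between 700001 and 800000. The falls were 5, 19 and 12 in the same segments. The difference between segments was not tested. Libraries did not overlap at 38 members that were higher at 72 h and 92 that were lower, against 25.4% and 20.3% of all tested intervals.

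The call balance of this forewing step depended on single libraries. Without 72 h replicate 1 there were 19 rising and 16 falling members, without 72 h replicate 2 also 19 and 16, without 72 h replicate 3 there were 18 and 22, without prepupa replicate 1 there were 20 and 23, and without prepupa replicate 2 there were 18 and 20. On the scale of library totals, the split was 17 rising and 103 falling, while the median of all intervals moved to -0.46.

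Among the rises at 72 h, the interval at 577609 to 578116 returned to 16.3, 17.8 and 14.1 CPM, against the prepupa values above (log2 change 3.30, SE 0.40, edgeR adjusted p = 5.06e-06). At 559075 to 559421 the forewing libraries had 11.8, 21.9 and 13.9 CPM at 72 h and 3.03, 2.75 and 1.97 CPM at prepupa, a log2 change of 2.60 (SE 0.37, edgeR adjusted p = 2.68e-05). It had at most 3.03 CPM in any forewing library of another label, with 0.139, 1.48 and 0.86 CPM at 6 d. A fall was called at 525183 to 526414, with 7.25, 7.93 and 7.11 CPM at 72 h and 16.4, 20.3 and 18.8 CPM at prepupa (log2 change -1.31, SE 0.32, edgeR adjusted p = 0.0048).

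From 72 h to 6 d, falls outnumbered rises in the forewing stretch. At 6 d 96 of 269 tested members fell and 4 rose, against backgrounds of 13.1% falling and 14.5% rising over all tested forewing intervals. The median log2 change was -0.89 for tested members and -0.03 for all tested intervals, and 231 of 269 members had a negative change. Libraries did not overlap at 134 members that were lower at 6 d and 6 that were higher, against backgrounds of 22.1% and 20.6%. With all 457 members and no filter on low counts, 106 fell and 4 rose, with a median of -1.04 against -0.21 for all intervals of the table.

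The forewing fall was called at 38 of 98 tested members between 500001 and 600000 (median log2 change -1.01), at 45 of 105 between 600001 and 700000 (-1.04) and at 13 of 66 between 700001 and 800000 (-0.44). Below the stretch, between 200001 and 500000, it was called at 6 of 85 with a median of -0.33, and of 7 tested intervals above 800000 none was called. Without 6 d replicate 1 the stretch had 63 falling members, and under the other leave-one-out fits 71 to 99. Under library totals it had 119 falling and 3 rising.

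The interval with the largest forewing fall by the naming rule was that at 559075 to 559421, with a log2 change of -4.26 between the 6 d and 72 h values given above (SE 0.45, edgeR adjusted p = 5.95e-07). At 551842 to 552383 the libraries had 0.279, 1.77 and 2.01 CPM at 6 d and 7.80, 11.8 and 6.69 CPM at 72 h (log2 change -2.69, SE 0.42, edgeR adjusted p = 6.13e-05). The strong interval at 718897 to 719920 had 11.4, 10.9 and 14.3 CPM at 6 d and 34.4, 42.1 and 27.8 CPM at 72 h, a log2 change of -1.51 (SE 0.23, edgeR adjusted p = 4.34e-05). None of these groups overlapped.

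**Figure D3:**
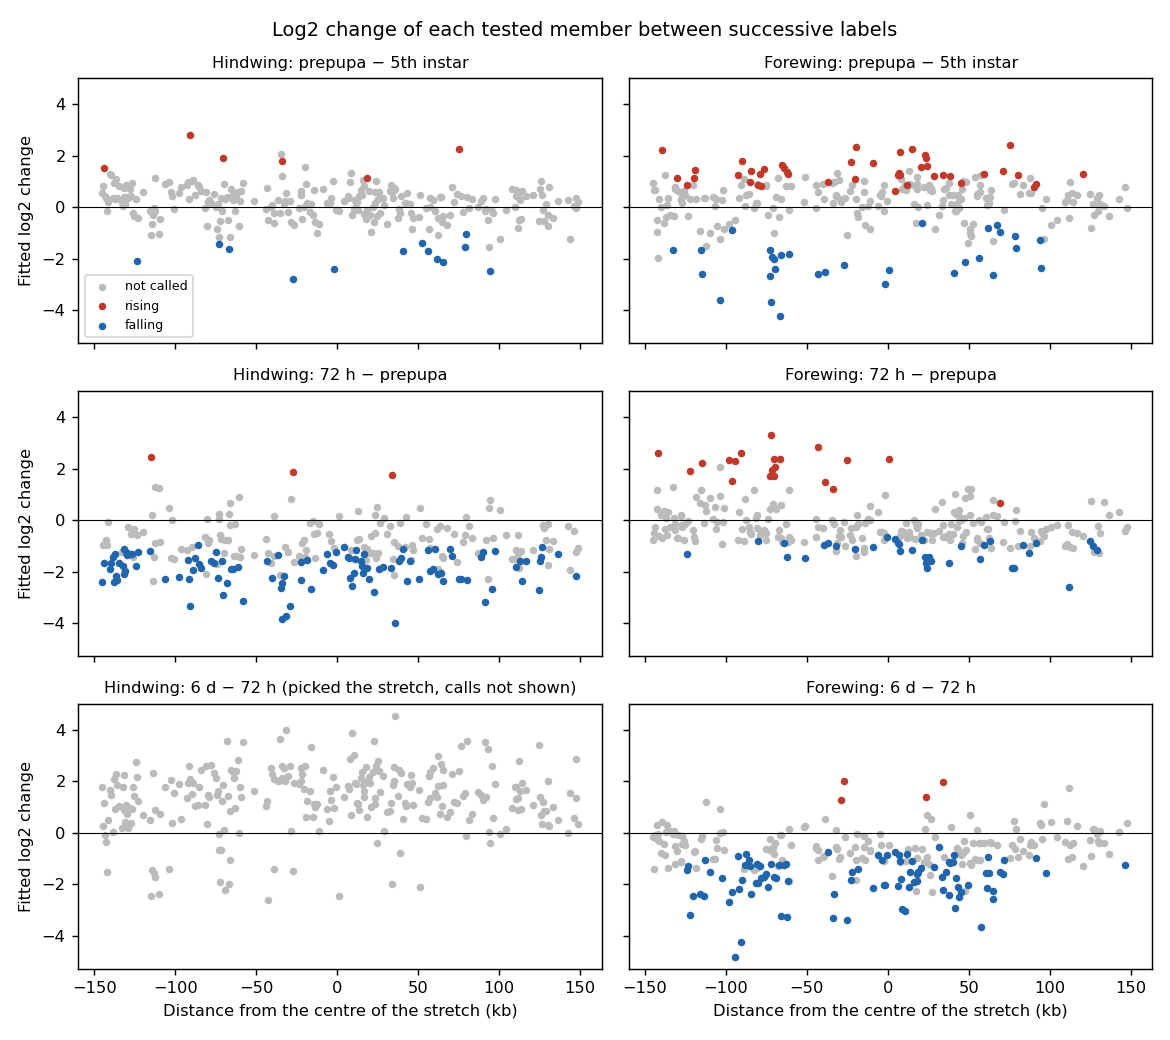
Fitted log2 change of every tested member (later minus earlier label) by distance from the centre of the stretch, with the hindwing on the left and the forewing on the right. Red and blue points are members called higher or lower at the later label by edgeR (adjusted p under 0.05) and grey points were not called, except that all points are grey for the hindwing contrast that picked the stretch. At the hindwing step to 72 h 112 of 264 points are blue, and at the forewing step to 6 d 96 of 269.

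A joint test over the 4 labels called 157 of 264 hindwing members, against a background of 39.1% of tested intervals, and 169 of 269 forewing members, against 52.9%. The hindwing joint test includes the contrast that picked the stretch. Of the 157 hindwing members 131 had their lowest mean at 72 h (83.4%), against 28.1% of all called hindwing intervals. This hindwing share follows in part from the choice of the stretch, so its comparison with the table has no weight. Of the 169 forewing members 137 had their lowest mean at 6 d (81.1%), against 29.5% of all called forewing intervals. Counting every member with or without a test, the shares were 330 of 432 and 334 of 457. No share of all intervals was computed for this count, and the backgrounds above do not apply to it. It includes 15 hindwing members without a read at 72 h and 18 forewing members without a read at 6 d.

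The label of highest mean was spread over more labels. Among the called hindwing members it was the 5th instar in 33, prepupa in 33, 72 h in 5 and 6 d in 86, or 21.0%, 21.0%, 3.18% and 54.8%. Over all called hindwing intervals the shares were 21.6%, 10.9%, 42.0% and 25.5% for these labels, so that the 5th-instar share of the members was near that of the table. The hindwing shares at 72 h and 6 d follow in part from the choice of the stretch, so their comparison with the table has no weight. Among the called forewing members the highest mean was that of the 5th instar in 46, of prepupa in 99, of 72 h in 22 and of 6 d in 2, or 27.2%, 58.6%, 13.0% and 1.18%. Over all called forewing intervals the shares were 21.4%, 25.3%, 19.6% and 33.7%.

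**Figure D4:**
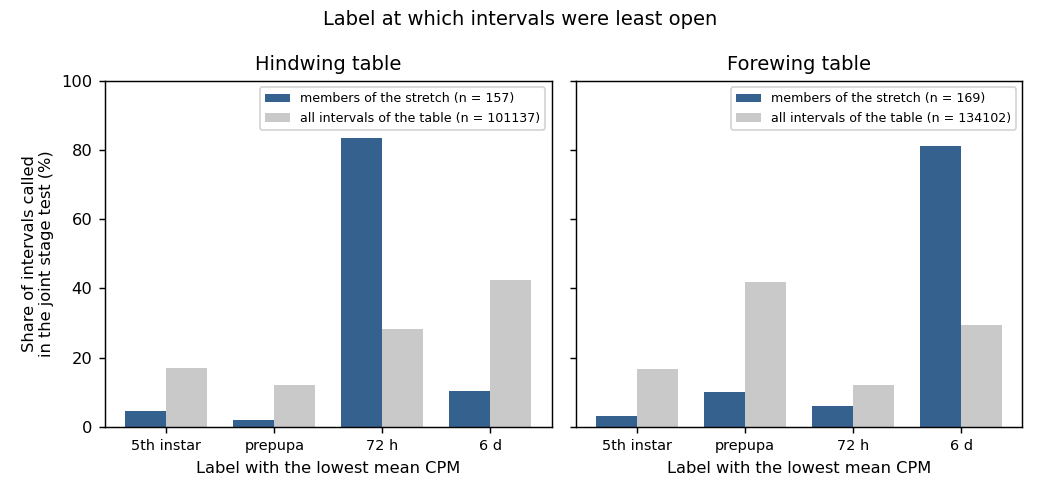
Share of intervals called in the joint stage test whose mean CPM was lowest under each label, for members of the stretch (blue) and for all called intervals of the table (grey), with the hindwing on the left. The blue bars peak at 72 h in the hindwing (83.4%) and at 6 d in the forewing (81.1%). The hindwing blue bars rest in part on the contrast that picked the stretch, so their comparison with the grey bars has no weight.

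The edges of the changing domain were read from 20 kb bins in which at least 50% of 3 or more tested intervals were called in one direction, as the longest run of such bins with 1 other bin allowed inside. For the hindwing fall from prepupa to 72 h the run went from 600001 to 660000, and for the forewing fall from 72 h to 6 d from 640001 to 700000, with 2 such bins in each run. Other bins of the stretch met the same share outside these runs. In the hindwing it was the bin from 500001 to 520000, with 15 of 21 tested intervals falling. In the forewing the bins from 540001 to 560000 (8 of 16) and from 560001 to 580000 (16 of 25) did so. The runs therefore do not bound all the bins that changed. The edges had no test, and they shifted with the bin size and the share required.

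Median changes by bin follow for the same steps. In the hindwing, the median log2 change from prepupa to 72 h was between -0.89 and -1.66 in every 20 kb bin of the stretch, -1.19 in the bin just below it and -0.70 in the bin just above. In the forewing, the median change from 72 h to 6 d was -0.20 between 500001 and 520000 and -0.92 in the next bin. It then lay between -0.75 and -1.28 up to 720000, was -0.64 in the bin from 720001 and -0.20 in the bin from 740001.

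Intervals just inside and just outside the limits of the stretch had low counts. In the hindwing the tested interval at 504664 to 504871, just inside the lower limit, had 0.551, 0.329 and 0.328 CPM at 72 h and 2.52, 1.90 and 2.17 CPM at prepupa, and that at 498237 to 498492, just outside, had 2.34, 0.987 and 1.31 CPM at 72 h and 3.01, 3.50 and 3.64 CPM at prepupa. At the upper limit, the interval at 798716 to 798879 had 1.24, 0.494 and 0.328 CPM at 72 h and 1.54, 1.20 and 1.82 CPM at prepupa, and that at 799998 to 800212 had 0.826, 1.65 and 0.657 CPM at 72 h and 1.97, 2.90 and 2.03 CPM at prepupa. The forewing intervals at 504706 to 504870 and 798269 to 798336, both inside, had means of 0.869 and 0.142 CPM at 6 d and 0.977 and 0.308 CPM at 72 h. Those outside, at 498272 to 498425 and 800034 to 800220, had 1.15 and 1.20 CPM at 6 d and 1.17 and 1.23 CPM at 72 h. The interval at 798269 was not tested and had 3 reads at 6 d and 15 at 72 h. Inside, that at 505208 to 505384 had 0.376 CPM at 6 d and 1.03 CPM at 72 h. That at 798818 to 798870 had 0.284 and 0.229 CPM. Outside, that at 499779 to 499844 had 0.949 and 0.332 CPM. The one that starts at 800638 had a log2 change of -1.47 and was not called. Higher and lower values at 6 d thus occurred on both sides of the limits.

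The 5 strongest members of each wing were wide intervals between 612124 and 719920. The interval at 716594 to 718732 in the hindwing had 56.9, 93.6 and 81.7 CPM at the 5th instar, then 35.5, 72.9 and 37.5 CPM under the prepupa label, 40.7, 40.8 and 37.6 CPM at 72 h and 62.5, 60.3 and 60.01 CPM at 6 d. It was called neither from 5th instar to prepupa nor from prepupa to 72 h with TMM factors. With library totals alone it fell from prepupa to 72 h (log2 change -0.76, edgeR adjusted p = 0.0155), against -0.29 with TMM factors (edgeR adjusted p = 0.555). From 72 h to 6 d its log2 change was 0.62 with TMM factors and 1.30 with library totals. Without prepupa replicate 2, whose value lay within the range of the 5th-instar libraries, the change from 5th instar to prepupa was -1.08 (edgeR adjusted p = 0.00663), against -0.67 with all libraries (edgeR adjusted p = 0.253).

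The forewing interval at 716590 to 718733 had 65.2, 85.7 and 99.9 CPM at the 5th instar, then 42.4, 60.8 and 51.7 CPM under the prepupa label, 54.7, 66.5 and 52.3 CPM at 72 h and 44.7, 40.7 and 38.1 CPM at 6 d. It fell at prepupa, with a log2 change of -0.69 (SE 0.20, edgeR adjusted p = 0.0138), but not with library totals alone (-0.18, edgeR adjusted p = 0.35). The call was also lost without prepupa replicate 1 or 3 or 5th-instar replicate 2 or 3 (edgeR adjusted p = 0.0563 to 0.0902).

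The widest member of the forewing, at 679559 to 683068 and 3510 bp long, had means of 69.7, 56.5, 41.5 and 28.5 CPM for the labels 5th instar, prepupa, 72 h and 6 d in that order. The hindwing table holds an interval at 679556 to 681856 there, which overlaps 65.5% of it and had means of 53.2, 34.0, 23.2 and 40.7 CPM under the same labels. At 648239 to 650795 the hindwing interval had means of 31.1, 28.9, 12.3 and 42.2 CPM, and the forewing interval at 648233 to 650817 had 32.6, 38.8, 24.8 and 13.7 CPM. In the hindwing intervals of both places 72 h was the lowest label, and in the forewing intervals 6 d was.

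A few members were called against the majority of the stretch. At 683689 to 684039 the hindwing libraries had 13.9, 10.9 and 13.8 CPM at 72 h and 2.52, 5.50 and 3.50 CPM at prepupa, so that the interval rose by a log2 change of 1.76 (SE 0.33, edgeR adjusted p = 0.000678). The forewing interval there, at 683686 to 684025, had 16.6, 8.56 and 9.46 CPM at 6 d and 2.90, 3.73 and 2.25 CPM at 72 h, a log2 change of 1.96 (SE 0.30, edgeR adjusted p = 5.99e-05). Neither pair of groups overlapped, and in each wing this interval was most open under the label at which the stretch as a whole was least open.

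The interval at 622448 to 622762 in the forewing also rose at 6 d, with 13.2, 7.53 and 4.45 CPM at 6 d and 1.55, 2.53 and 2.18 CPM at 72 h (log2 change 2.02, SE 0.40, edgeR adjusted p = 0.000706). In the hindwing the interval at 622449 to 622761 had 11.8, 5.43 and 3.61 CPM at 72 h and 1.60, 3.0 and 1.26 CPM at prepupa (log2 change 1.87, SE 0.45, edgeR adjusted p = 0.00495), a call that was lost without 72 h replicate 1 (1.25, edgeR adjusted p = 0.0729). In both wings the 5th-instar libraries overlapped these higher values, with hindwing values of 9.13, 13.6 and 17.0 CPM and forewing values of 6.02, 8.34 and 16.4 CPM. At 534774 to 535032 the hindwing had 8.26, 6.75 and 4.43 CPM at 72 h and 0.799, 1.90 and 0.979 CPM at prepupa (log2 change 2.44, SE 0.39, edgeR adjusted p = 0.000128). The intervals at 534774, 622449 and 683689 were the 3 hindwing members called higher at this step.

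**Figure D5:**
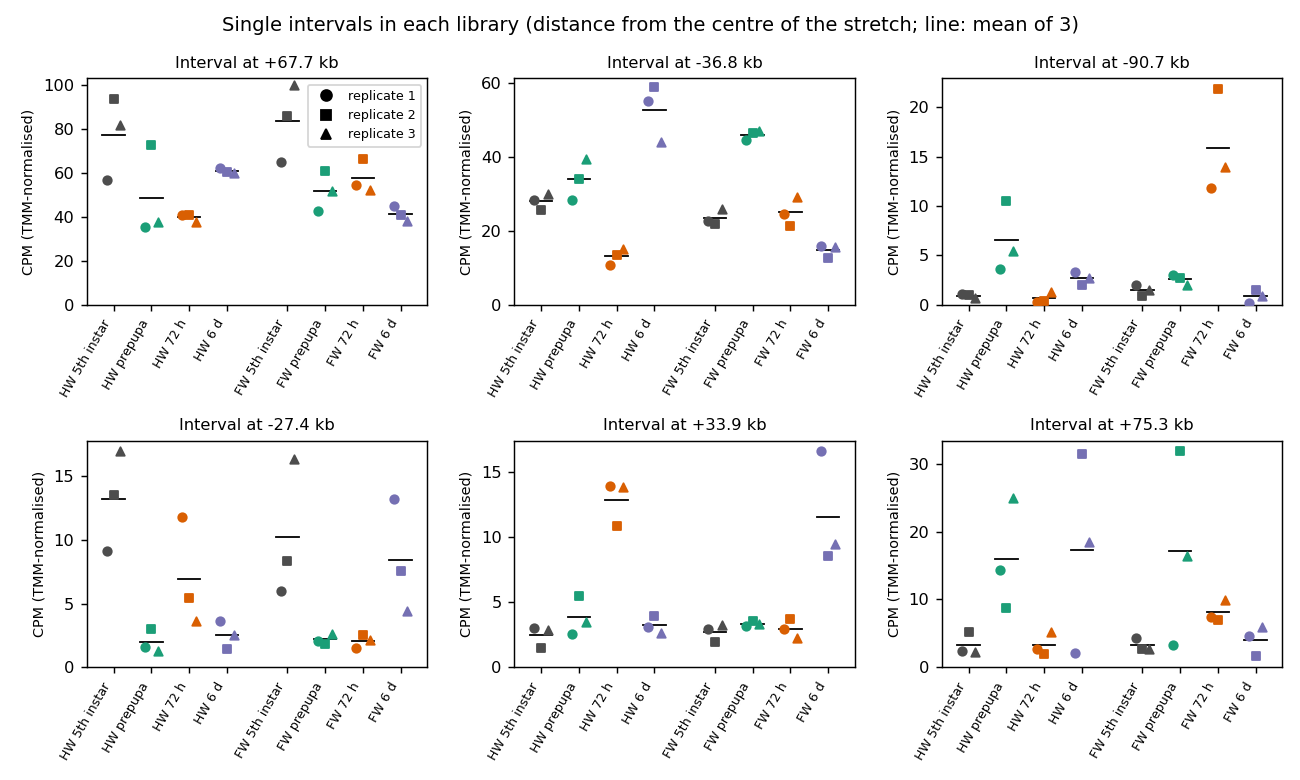
TMM-normalised CPM of 6 intervals in each library, hindwing (HW) groups left of forewing (FW) groups, with a line at each mean of 3 and a marker shape for each replicate number. The interval at -36.8 kb from the centre of the stretch follows the stretch, with 72 h lowest in the hindwing and 6 d lowest in the forewing, whereas those at -27.4 kb and +33.9 kb are higher under these labels than under the label before.

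At some intervals libraries within a group differed widely by replicate number, in a forewing and a hindwing group of different names. Members were not searched for such cases, and 2 intervals seen among those named are given. At 622449 to 622761 the hindwing libraries labelled 72 h had 11.8, 5.43 and 3.61 CPM in replicates 1, 2 and 3. At 622448 to 622762 the forewing libraries labelled 6 d had 13.2, 7.53 and 4.45 CPM in the same order. At 725117 to 725394 the hindwing libraries labelled 6 d had 2.10, 31.4 and 18.5 CPM in replicates 1, 2 and 3. At 725119 to 725396 the forewing libraries labelled prepupa had 3.29, 31.8 and 16.4 CPM in replicates 1, 2 and 3. The hindwing libraries labelled prepupa had 14.3, 8.81 and 24.9 CPM, and all other groups lay at or below 9.86 CPM. The forewing rise at prepupa was called with a log2 change of 2.40 (SE 0.55, edgeR adjusted p = 0.00229), although prepupa replicate 1 of the forewing lay within the range of the 5th-instar libraries, which had 4.34, 2.70 and 2.68 CPM.

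The interval that starts at 559107 in the hindwing and 559075 in the forewing showed another likeness across labels. In the hindwing prepupa group, replicate 2 had 10.5 CPM and replicates 1 and 3 had 3.62 and 5.46 CPM, while in the forewing the interval was open at 72 h, with 11.8, 21.9 and 13.9 CPM. The forewing libraries labelled prepupa had 3.03, 2.75 and 1.97 CPM. Whether library labels play a part in these values was not tested.

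At the 5th instar no difference between the wings was called at any matched member. Intervals of the 2 tables were matched with at least 80% reciprocal overlap, which gave 143 pairs in the stretch, of which 138 were tested among 127816 pairs in all. Of these, 0 were called in either direction (edgeR adjusted p of at least 0.912), and 6 had an unadjusted p under 0.05. DESeq2 also called 0. The background was 0.00548% called higher in the hindwing and 0.00235% higher in the forewing. Log2 differences of hindwing minus forewing ranged from -1.40 to 1.40 with a median of 0.01 and quartiles of -0.31 and 0.35. The test did not use the pairing of the libraries by number, and it does not show that the wings were alike there.

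Of the 143 matched pairs, 104 had their lowest mean in the hindwing at 72 h and in the forewing at 6 d (72.7%), against 16.9% of all 136423 matched pairs. The lowest mean fell under the same label in both wings at 11 pairs (7.69%), against 19.8% of all pairs. The highest mean fell at 6 d in the hindwing and at prepupa in the forewing at 66 pairs (46.2%), against 20.7% of all pairs. The hindwing side of these counts rests on libraries that picked the stretch, so their comparison with all pairs has no weight.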

How the data were processed

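The authors deposited raw read counts per peak interval, 1 table for each wing with its own intervals, per the file headers. Upstream tools included Bowtie2 and deepTools, per the submitters' processing notes. The genome build, peak caller, duplicate handling and any shift of read ends were not given in the sources used here. Duplicate or multiply mapped reads would make counts look more precise than they are. Deposited interval starts count from 0, and 1 was added to each for printing.

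Counts were tested within each wing with edgeR 4.0.16 (quasi-likelihood F test, R 4.3.3), TMM factors, filterByExpr (minimum count 10, minimum total 15) and Benjamini-Hochberg adjustment over all tested intervals of the table. A call needs an adjusted p under 0.05. One fit per wing held its 4 stages. The wings were compared at the 5th instar in a fit of all 24 libraries. At that stage same-numbered libraries of both wings deviated together (correlations 0.338, 0.28 and 0.318), so the numbers were taken to pair them. This pairing comes from the data, and the main fit did not use it. Between stages no step had all 3 correlations above 0.1. They were 0.113, 0.108 and -0.0392 for the hindwing step from 5th instar to prepupa, and the numbers were not taken to pair stages. Standard errors are the log2 change divided by the square root of F. Alternatives were library totals in place of TMM, no low-count filter, DESeq2 1.42.0, a replicate block and leaving out each library.

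Members, lists and tests were chosen with earlier results of these data known. Per wing, the rule for named intervals took the 5 strongest members, the 2 largest called rises and falls of each step where the higher group reached 5 CPM, the strongest member called against the majority, the intervals next to the limits, the widest member and the 3 strongest matched pairs. Further intervals and bins named were chosen after their values were seen.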

Additional observations from a re-analysis of the deposited data

Results flagged for a closer look

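The summed level of the stretch moved in opposite directions in the wings between the libraries labelled 6 d and 72 h. In the hindwing it was higher in all 3 libraries at 6 d than in all 3 at 72 h, a log2 ratio of 1.11, and in the forewing it was lower in all 3 at 6 d than in all 3 at 72 h, a log2 ratio of -0.79. The difference between the wings was not tested, the hindwing contrast picked the stretch, and the order of the labels in development was not tested. Over all 136423 matched pairs the label of lowest mean was the same in both wings at 19.8%. Whether the names 6 d and 72 h mark the same stages in both tables was not tested, and they may not. The opposite directions are therefore a statement about labels and not about stages. No groups of 4 or more libraries exist in which a single library could be tested as standing apart.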

How the results depend on the processing

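With library totals alone, members called became 109 rising and 19 falling for the forewing step from 5th instar to prepupa, 103 falling from prepupa to 72 h, and in the hindwing 12 rising from 5th instar to prepupa, 187 falling from prepupa to 72 h and 6 lower at 6 d than at 72 h. The summed levels became 982, 413 and 1360 CPM for the hindwing 5th instar, 72 h and 6 d, and 1008, 1362, 893 and 458 CPM for the 4 forewing labels in order. These levels were divided by all counts in peaks and not by those of the tested intervals, so the TMM factors are not the only difference. Their log2 ratios for the 3 steps became 0.15, -1.40 and 1.72 in the hindwing and 0.43, -0.61 and -0.96 in the forewing, so that the first step changed sign in both wings. Relative to the median of all intervals, member medians for the 3 steps were 0.11, -1.16 and 1.40 in the hindwing and 0.38, -0.36 and -0.85 in the forewing with TMM factors, and 0.13, -1.16 and 1.39, and 0.38, -0.37 and -0.85 with library totals. With no low-count filter, 53 forewing members fell from 5th instar to prepupa and 34 rose from prepupa to 72 h. DESeq2 and the replicate block moved no count of called members by more than 1.5 times. In the block fit 106 hindwing members fell from prepupa to 72 h and 87 forewing members from 72 h to 6 d. For the wing difference at the 5th instar the block fit also called 0. It gave all 4 labels a shared effect of replicate number, so it did not model a pairing of the 5th-instar libraries alone. A paired test of these libraries was not run.

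Leaving out each library (for the summed levels an alternative chosen after seeing the data, as was DESeq2 for member medians) gave 27 to 40 rising and 22 to 31 falling forewing members for the first step, 18 to 20 and 16 to 31 for the second, and 3 to 5 and 63 to 99 for the third. In the hindwing it gave 1 to 4 and 8 to 22, 2 to 5 and 65 to 110, and, for the contrast that picked the stretch (150 and 14 calls with all libraries, given here only to describe the settings), 112 to 141 and 9 to 14, where the 9 came without 72 h replicate 1. Joint tests called 149 to 181 forewing and 122 to 171 hindwing members, and the wing difference called 0 to 0. The summed log2 ratios ranged from -0.17 to -0.07, -0.98 to -0.88 and 1.06 to 1.16 in the hindwing and from -0.09 to 0.05, -0.24 to -0.17 and -0.81 to -0.76 in the forewing.

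With bins of 10 kb the domain of the hindwing fall from prepupa to 72 h ran from 450001 to 480000, that of the hindwing rise from 72 h to 6 d, which the choice of the stretch fixes in part, from 550001 to 770000 (440001 to 740000 with 20 kb bins), and that of the forewing fall ended at 720000. With 1 in 3 of the intervals required they ran from 420001 to 780000, 380001 to 780000 and 520001 to 600000. Of 117 changes of named intervals, the contrast that picked the stretch included, 63 were called. Calls were lost at 4 of them with library totals, 3 with the block, 2 with DESeq2 and 1 with no filter, and in 57 of the leave-one-out fits against 321 that held the call. Of the 54 uncalled changes, 18 were called with library totals and 1 with DESeq2, and 9 leave-one-out fits gave a call. None reversed. Named intervals were picked in part for large called changes, so these counts do not describe the members as a whole. The fold changes of weakly covered members are limited by depth, as 168 hindwing and 188 forewing members were not tested.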
